A study of Mus musculus with 16 samples.

Results

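The fibroblast growth factor (FGF) genes described here are the ligands Fgf4, Fgf8, Fgf10, Fgf15 and Fgf17, the receptors Fgfr1, Fgfr2, Fgfr3 and Fgfr4, and the binding protein gene Fgfbp1, 10 of the 31663 entries of the expression table, chosen by their symbols. The study used RFP-marked mouse trophectoderm stem cells (TSC) and GFP-marked mouse induced pluripotent stem cells (iPSC). They were cultured alone, or together in structures that the cells formed by assembly, each with a red TSC part and a green iPSC part. The 8 groups of 2 libraries, 16 in all, are the assembled TSC part with and without BMP4, TSC alone with and without BMP4, the assembled iPSC part with and without BMP4, and iPSC alone with and without BMP4. All cultures, controls included, grew with 5% Matrigel in a medium that held 12.5 ng/ml of FGF4 protein and 500 ng/ml of heparin, so no group lacked an external FGF. BMP4, a signalling protein of the TGF-beta superfamily, was present for 24 hours or absent, its dose not being stated in the labels used here, and cells were collected on day 3. Each library was made by the Smart-seq2 protocol from a single colony, and the parts of an assembled structure were picked under a fluorescence microscope and separated by hand, so cells of the other part may remain.

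FGF ligands are secreted proteins that bind tyrosine kinase receptors together with heparan sulfate or heparin, and the active receptor signals through RAS and ERK to targets that include its own inhibitors. In the mouse blastocyst and early egg cylinder, FGF4 from the epiblast acts on FGFR2 in the neighbouring trophectoderm and keeps trophoblast stem cells dividing, which is why cultures of such cells are given FGF4 with heparin. FGF8 is made in the primitive streak of the gastrulating embryo, where FGFR1 is needed for mesoderm to form.

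Promoter windows are shown for members called between TSC and iPSC, alone or between assembled parts, where a window was available. RefSeq (GRCm38.p6) gave such windows, from 250 bases before to 50 after an annotated start, for 6 of the 10 members. Fgf8, Fgf15, Fgf17 and Fgfr1 had none, so the called members Fgf8, Fgf15 and Fgf17 are not shown. Those of Fgf4, Fgfr2, Fgfr4 and Fgfbp1 follow, each 5′ to 3′ on the gene's own strand. Capitals mark matches, on either strand, to the letters GGGCGG, known as a GC box, to the CCAAT box as spelled, to a TATA box, searched as TATAAA, or to the palindrome GCCNNNGGC, which TFAP2 factors bind.
Fgf4, chr7:144861136-144861435, plus strand: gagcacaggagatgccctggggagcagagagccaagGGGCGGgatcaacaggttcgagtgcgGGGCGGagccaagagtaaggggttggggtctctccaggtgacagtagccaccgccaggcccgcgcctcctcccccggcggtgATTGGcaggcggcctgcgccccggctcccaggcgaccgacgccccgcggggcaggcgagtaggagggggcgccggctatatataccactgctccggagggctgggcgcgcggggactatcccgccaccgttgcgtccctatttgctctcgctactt
Fgfr2, chr7:130266759-130267058, minus strand: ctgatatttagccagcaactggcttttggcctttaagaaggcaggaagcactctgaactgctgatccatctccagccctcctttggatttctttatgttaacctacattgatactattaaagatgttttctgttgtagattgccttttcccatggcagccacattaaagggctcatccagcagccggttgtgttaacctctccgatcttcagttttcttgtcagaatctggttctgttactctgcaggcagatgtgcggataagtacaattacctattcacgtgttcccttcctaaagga
Fgfr4, chr13:55152568-55152867, plus strand: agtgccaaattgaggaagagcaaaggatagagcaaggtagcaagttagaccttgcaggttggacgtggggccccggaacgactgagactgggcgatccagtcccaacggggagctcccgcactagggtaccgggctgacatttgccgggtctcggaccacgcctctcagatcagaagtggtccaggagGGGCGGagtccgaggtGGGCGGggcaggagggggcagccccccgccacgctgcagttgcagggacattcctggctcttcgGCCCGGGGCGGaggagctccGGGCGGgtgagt
Fgfbp1, chr5:43981750-43982049, minus strand: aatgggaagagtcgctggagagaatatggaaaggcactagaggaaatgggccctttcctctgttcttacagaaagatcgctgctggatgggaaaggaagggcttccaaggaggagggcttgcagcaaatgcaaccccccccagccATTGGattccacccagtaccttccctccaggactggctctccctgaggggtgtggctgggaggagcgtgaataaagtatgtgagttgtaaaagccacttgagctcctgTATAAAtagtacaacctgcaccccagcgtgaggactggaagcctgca
The Fgf4 window held 2 GC boxes and 1 CCAAT box. The Fgfr4 window held 4 GC boxes, of which 1 overlaps its single TFAP2 palindrome. The Fgfbp1 window held 1 CCAAT box and 1 TATA box. The Fgfr2 window held none of these, nor an octamer, searched as ATTTGCAT, or a GATA site, searched as AGATAA, and its GC content of 43.7% was below the 52.7% median of all windows, while Fgf4 (69.7%) and Fgfr4 (65.3%) were above it. Of 32851 RefSeq windows, 35.7% held a GC box, 37.4% a CCAAT box, 13.6% a TATA box, 16.6% a TFAP2 palindrome, 11.2% a GATA site and 1.74% an octamer, so the matches describe the windows and single out none of them.

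Levels are FPKM as the authors deposited them, a measure scaled to transcript length and to the library's total. Levels of different genes are compared on that basis, although the program and annotation behind the values are not known. The read depth is not given in the sources used here, and a gene listed at 0 has no known upper limit. A value at or near 0 may also be a failed estimate, which was not tested. There were 2 genes at 20 FPKM or more in 15 libraries but under 0.001 FPKM in the remaining one, 1 of them at exactly 0. Between 10504 and 11419 genes reached 1 FPKM per library. Of 8 pluripotency markers, Pou5f1, Nanog and Tdgf1 separated the origins, Pou5f1 at 0.0335 to 13.2 FPKM in the 8 libraries of TSC origin and 49.5 to 326 FPKM in the 8 of iPSC origin. Dppa5a, Dppa4 and Utf1 overlapped, and Sox2 (3.78 FPKM in TSC and 1.36 FPKM in iPSC) and Zfp42 (18.8 and 7.28 FPKM) had higher medians in TSC. The sum over the 8 was 200.6 to 1165 FPKM in TSC and 1010 to 3921 FPKM in iPSC. In TSC alone without BMP4, however, several markers of trophoblast stem cells were at or near 0: Cdx2 was listed at 0 and at 3.89 FPKM, Eomes at 0.219 and 0.0844 FPKM and Esrrb at 0 and 0.140 FPKM. Other markers were at their highest of the TSC side there: Krt18 reached 2947 and 1705 FPKM, Krt8 2932 and 1367 FPKM, Tfap2c 140.5 and 99.4 FPKM and Gata3 47.0 and 34.3 FPKM. Hand1 stood at 149.6 and 287.5 FPKM, within the range of the other TSC libraries. In 2 libraries, picked after their values were seen, some of the other lineage's markers stood out. Replicate 2 of the BMP4-treated assembled iPSC part held Elf5, a trophoblast regulator, at 50.4 FPKM, against 0 to 0.413 FPKM in the other 7 libraries of iPSC origin. Hand1 (148.8 against 10.4 FPKM), Esrrb, Eomes and Krt18 were also higher there than in replicate 1. Gata3 (6.02 against 12.5 FPKM), Krt8 (107.2 against 323.5 FPKM), Cdx2 and Tfap2c were lower. The sum over these 9 markers was 542 FPKM in replicate 1 and 585 FPKM in replicate 2, below the 781 FPKM in replicate 2 of iPSC alone with BMP4. Replicate 2 of the assembled TSC part without BMP4 held Pou5f1 at 13.2 FPKM and the primitive streak gene T at 16.7 FPKM, the highest of the 8 libraries of TSC origin for both. Summed markers of fibroblasts (8 genes) stayed between 0.338 and 4.31 FPKM and those of primitive endoderm (7 genes) between 1.33 and 10.7 FPKM. In such bulk libraries, fewer cells of a type and less RNA per cell cannot be told apart.

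Differences between groups come from limma fits of log2(FPKM + 1) over all 16 libraries and are printed with their SE, on a scale that understates changes of genes with low levels, and a call is an adjusted p under 0.05 over the 13406 genes tested. A gene was tested if it reached 1 FPKM in at least 2 libraries. Of the 10 members 9 did, and Fgf10 did so in 1 library only. The labels do not say whether the libraries within a group had separate cultures as their source, so the p-values speak of the spread among these libraries and of nothing wider.

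Among cells cultured alone, over both BMP4 conditions (4 libraries against 4), all 4 tested ligands were lower and Fgfr2 and Fgfbp1 higher in TSC. That is 6 of 9 members called, where 42.3% of all tested genes were called, 18.4% higher and 24.0% lower. Between the parts of the assembled structures, Fgf4 and Fgf8 were lower and Fgfr2, Fgfr4 and Fgfbp1 higher in the TSC part, 5 of 9 members against 27.0% of all genes (16.5% higher and 10.5% lower, or 13.1% higher and 14.4% lower after upper quartile rescaling). Assembled against alone, Fgf4 and Fgf15 were lower in iPSC, 2 of 9 members, where 26.6% of all genes were called. That split was 5.95% higher and 20.6% lower as deposited, 11.5% and 12.9% after quantile normalization, 13.4% and 10.5% after upper quartile rescaling, and 5.07% and 26.2% with predicted genes left out. In TSC the same contrast gave 1 of 9 members, Fgfr4, which was higher, against 17.6% of all genes. Of all genes there, 6.97% were higher and 10.6% lower as deposited, 9.95% and 7.97% after upper quartile rescaling, and 6.18% and 15.1% with predicted genes left out. These calls came from the untreated pair, with 9.01% higher and 10.2% lower when it was used by itself, against 0.157% and 0.142% with only the BMP4-treated pair. The median of all genes in the iPSC contrast was -0.19 as deposited, -0.01 after quantile normalization and 0.04 after upper quartile rescaling, so differences there are read against that shift.

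**Figure D1:**
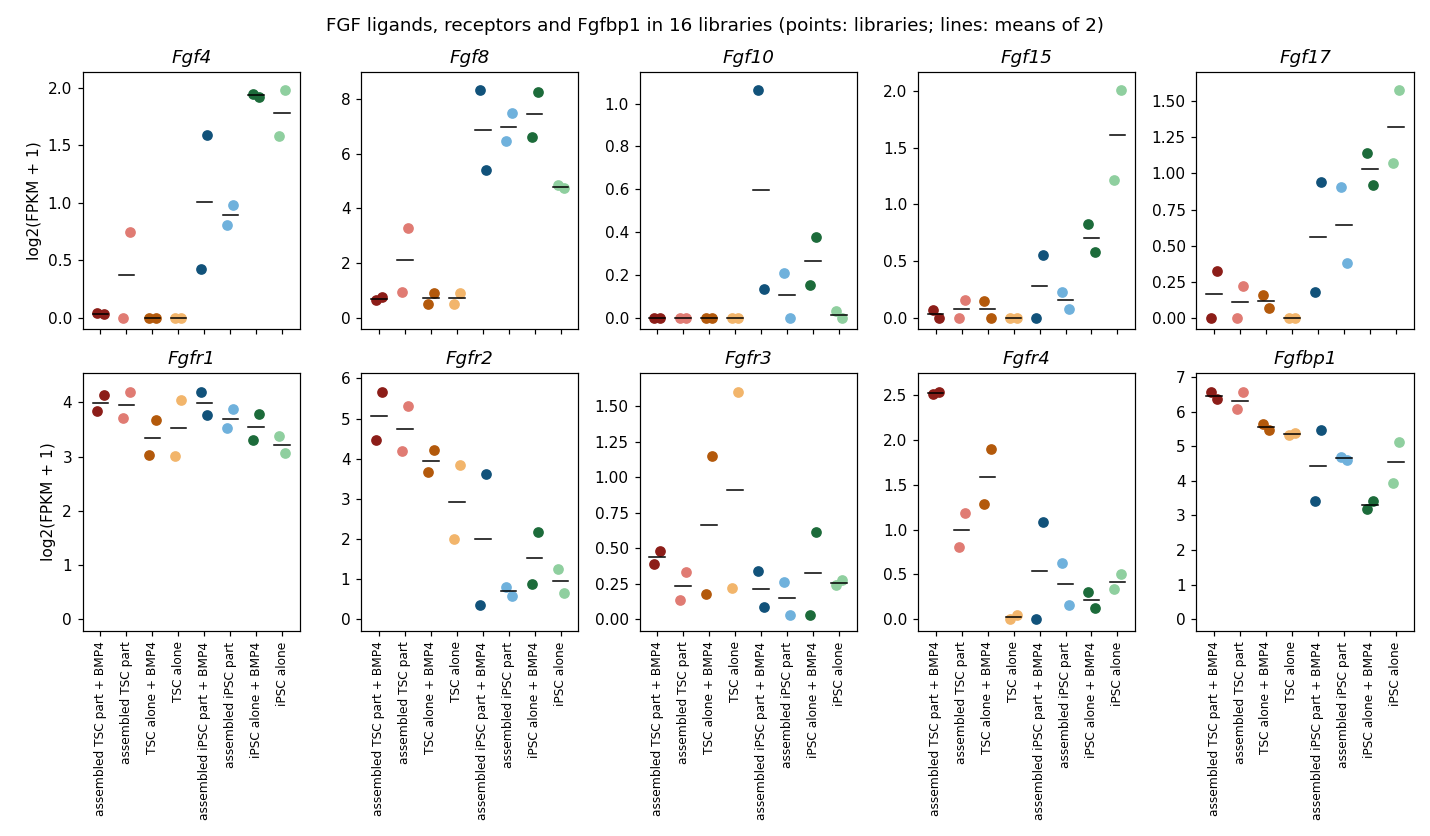
Each panel plots 1 gene as log2(FPKM + 1) in the 16 libraries, with the 8 groups along the axis, points for libraries and lines for means of 2. Fgf4, Fgf8 and Fgf17 are higher in the 4 iPSC groups, Fgfr2 and Fgfbp1 in the TSC groups, and Fgfr1 stays between 7.11 and 17.4 FPKM in all 16 libraries.

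Fgf8, the ligand of the primitive streak, was the most abundant of the 5 ligands in every library of iPSC origin, with 76.4% to 99.5% of their summed FPKM. It also led in every library of TSC origin, with 64.3% to 100% of sums that did not exceed 9.77 FPKM. In the assembled TSC part it stood at 0.558 and 0.705 FPKM with BMP4 and at 0.938 and 8.82 FPKM without it. TSC alone held 0.409 and 0.893 FPKM with BMP4 and 0.420 and 0.887 FPKM without it. These 8 libraries were all low, and the single one above 1 FPKM is the assembled TSC library that also held the most T and Pou5f1 of the TSC side. In the assembled iPSC part Fgf8 stood at 321 and 41.2 FPKM with BMP4 and at 87.5 and 180.4 FPKM without it. In iPSC alone it reached 97.1 and 309 FPKM with BMP4 but 27.8 and 25.7 FPKM without it. Untreated iPSC alone were thus the lowest of the 4 iPSC groups, the other 3 overlapped one another, and no library of TSC origin reached any library of iPSC origin. TSC minus iPSC gave -5.41 ± 0.61 alone (limma adjusted p = 2.81e-05) and -5.51 ± 0.61 between assembled parts (limma adjusted p = 6.71e-05). Without the 2 libraries with markers of the other lineage the assembled difference was -6.83. Those 2 held the highest Fgf8 of the TSC side (8.82 FPKM) and the lowest of the assembled iPSC part (41.2 FPKM). Leaving them out could thus only widen this difference. Assembled minus alone in iPSC was 0.80 ± 0.61 (limma adjusted p = 0.362, 95% interval -0.52 to 2.13). Without replicate 2 of the BMP4-treated assembled iPSC part, which at 41.2 FPKM was the lowest of that part, it became 1.54 with an adjusted p of 0.0494. The sum over 6 markers of the primitive streak, T included, was 123 to 582 FPKM in the assembled iPSC part and 55.5 to 365 FPKM in iPSC alone. It was 1.14 to 23.4 FPKM in the 8 libraries of TSC origin. Much of the sum was T, with 44.6 of 59.4 and 39.6 of 55.5 FPKM in untreated iPSC alone. T, Evx1 and Sp5 separated the origins, while Mixl1, Mesp1 and Lhx1 overlapped. Mesp1 and Lhx1 had medians of 0.536 and 0.447 FPKM in libraries of iPSC origin. For assembly in iPSC, 1 of the 6 was called, as higher. The part of these markers in the result was not tested.

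Fgf4, the ligand that the epiblast sends to the trophectoderm, was present only at low levels, none above 2.94 FPKM. It was listed at 0 in all 4 libraries of TSC alone. The assembled TSC part held 0.0274 and 0.0220 FPKM with BMP4 and 0 and 0.674 FPKM without it, the value of 0.674 again in the library with the most Pou5f1 on the TSC side. The assembled iPSC part held 0.343 and 2.00 FPKM with BMP4 and 0.751 and 0.978 FPKM without it. In iPSC alone it stood at 2.85 and 2.79 FPKM with BMP4 and at 1.98 and 2.94 FPKM without it. The order was thus iPSC alone, the assembled iPSC part and the TSC groups. Neighbours in it overlapped, with 1 assembled iPSC library at 2.00 FPKM above 1 of iPSC alone at 1.98 FPKM, and 1 at 0.343 FPKM below the TSC library at 0.674 FPKM. TSC minus iPSC gave -1.86 ± 0.25 alone (limma adjusted p = 0.000102) and -0.75 ± 0.25 between assembled parts (limma adjusted p = 0.0423), the second becoming -0.64 (adjusted p = 0.0417) without the 2 libraries with markers of the other lineage. The assembled call was lost when any of 6 single libraries was left out: replicate 1 or 2 of the iPSC part (adjusted p = 0.078 and 0.116), replicate 1 of the TSC part (0.163), replicate 2 of the BMP4-treated iPSC part (0.144) and replicate 1 or 2 of the BMP4-treated TSC part (0.0885 and 0.0946). Over all 19 alternative runs the call between assembled parts held in 9 and was lost in 10. Assembled minus alone in iPSC was -0.90 ± 0.25 (limma adjusted p = 0.0192), and -1.19 without the 2 libraries with markers of the other lineage. Of 19 alternative runs, 11 kept this call and 8 lost it. This call in turn was lost without replicate 2 of iPSC alone (adjusted p = 0.0747), replicate 1 of the assembled part (0.0584), replicate 1 of iPSC alone with BMP4 (0.0556) or replicate 1 of the assembled part with BMP4 (0.067), and after upper quartile rescaling (0.0581).

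Fgf15, which in the adult mouse is a gut hormone that limits bile acid synthesis, and Fgf17, a close relative of Fgf8, were likewise low, and higher in iPSC alone than in TSC alone. Fgf15 did not exceed 0.115 FPKM in any of the 8 libraries of TSC origin and was listed at 0 in 5 of them. In the assembled iPSC part it was listed at 0 and stood at 0.472 FPKM with BMP4, and stood at 0.171 and 0.0559 FPKM without it. In iPSC alone it was at 0.777 and 0.496 FPKM with BMP4 and at 1.32 and 3.02 FPKM without it. Every library of iPSC alone was therefore above every assembled iPSC library. Assembled minus alone in iPSC was -0.94 ± 0.20 (limma adjusted p = 0.00545), and TSC minus iPSC was -1.12 ± 0.20 alone (limma adjusted p = 0.000777) but -0.16 ± 0.20 between assembled parts (limma adjusted p = 0.604). Both calls rest on the untreated pair: with only the BMP4-treated groups they were -0.43 (adjusted p = 0.375) and -0.63 (adjusted p = 0.145).

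Fgf17 ranged from 0 to 0.252 FPKM in the 8 libraries of TSC origin, with a median of 0.0252 FPKM. The assembled iPSC part held 0.132 and 0.919 FPKM with BMP4 and 0.877 and 0.303 FPKM without it. In iPSC alone it stood at 1.20 and 0.896 FPKM with BMP4 and at 1.10 and 1.99 FPKM without it. The assembled iPSC libraries overlapped both the TSC libraries and iPSC alone. TSC minus iPSC was -1.12 ± 0.22 alone (limma adjusted p = 0.00119), and the difference missed the threshold between assembled parts (-0.47 ± 0.22, limma adjusted p = 0.132), where it passed without replicate 1 of the BMP4-treated assembled iPSC part (-0.66, adjusted p = 0.0462). With only the BMP4-treated groups the difference alone was -0.92 (adjusted p = 0.0545). Assembled minus alone in iPSC was -0.58 ± 0.22 (limma adjusted p = 0.0652), and without replicate 2 of the BMP4-treated assembled iPSC part it was -0.77 with an adjusted p of 0.0198. It also passed with predicted names left out (-0.63, adjusted p = 0.0368) and with library quality weights (adjusted p = 0.0447).

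Fgf10, a ligand that mesenchyme commonly sends to epithelium bearing FGFR2, was listed at 0 in all 8 libraries of TSC origin. In the assembled iPSC part it stood at 1.09 and 0.0965 FPKM with BMP4 and at 0.158 and 0 FPKM without it. In iPSC alone it stood at 0.113 and 0.301 FPKM with BMP4 and at 0.0207 and 0 FPKM without it. It was not tested.

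Fgfr1, the receptor that mouse mesoderm requires, stood between 7.11 and 17.4 FPKM in all 16 libraries. The assembled TSC part held 13.3 and 16.5 FPKM with BMP4 and 12.2 and 17.3 FPKM without it, and TSC alone held 7.14 and 11.7 FPKM with BMP4 and 7.11 and 15.5 FPKM without it. The assembled iPSC part held 17.4 and 12.7 FPKM with BMP4 and 10.5 and 13.7 FPKM without it, and iPSC alone held 8.83 and 12.8 FPKM with BMP4 and 9.47 and 7.33 FPKM without it. Every group overlapped its neighbour in the order of levels. TSC minus iPSC was 0.06 ± 0.26 alone (limma adjusted p = 0.876, 95% interval -0.50 to 0.62) and 0.13 ± 0.26 between assembled parts (limma adjusted p = 0.761, 95% interval -0.43 to 0.69). Assembled minus alone was 0.46 ± 0.26 in iPSC (limma adjusted p = 0.209), which passed after quantile normalization (0.78, adjusted p = 0.0245) and after upper quartile rescaling (0.77, adjusted p = 0.0307), and 0.53 ± 0.26 in TSC (limma adjusted p = 0.177).

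Fgfr2, the receptor through which FGF4 acts on mouse trophoblast stem cells, was higher in TSC than in iPSC, alone and assembled. The assembled TSC part held 21.1 and 49.9 FPKM with BMP4 and 17.2 and 38.8 FPKM without it. TSC alone held 11.7 and 17.4 FPKM with BMP4 and 3.03 and 13.3 FPKM without it. The assembled iPSC part held 0.273 and 11.4 FPKM with BMP4 and 0.757 and 0.500 FPKM without it, and iPSC alone held 0.849 and 3.53 FPKM with BMP4 and 1.39 and 0.568 FPKM without it. The sets of TSC and iPSC origin overlapped through 3 libraries, TSC alone at 3.03 FPKM, iPSC alone with BMP4 at 3.53 FPKM and the assembled iPSC part with BMP4 at 11.4 FPKM, the last being the library with Elf5 at 50.4 FPKM. TSC minus iPSC was 2.19 ± 0.63 alone (limma adjusted p = 0.0139) and 3.56 ± 0.63 between assembled parts (limma adjusted p = 0.00136). The difference alone missed the threshold without replicate 2 of iPSC (adjusted p = 0.0503), replicate 2 of TSC (0.0604) or replicate 1 of iPSC with BMP4 (0.0593), and with only the untreated (0.103) or only the treated groups (0.0808). Between assembled parts it was 4.10 without the 2 libraries with markers of the other lineage. Assembled minus alone in TSC was 1.47 ± 0.63 (limma adjusted p = 0.126, 95% interval 0.10 to 2.84), with all 4 assembled TSC libraries at 17.2 FPKM or more and TSC alone at 17.4 FPKM or less.

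Fgfr4, a receptor best known from liver, was the 1 member called for BMP4, in TSC alone and in none of the other 3 BMP4 comparisons. In the assembled TSC part it stood at 4.70 and 4.80 FPKM with BMP4, against 0.743 and 1.28 FPKM without it. In TSC alone it stood at 1.44 and 2.72 FPKM with BMP4, against 0 and 0.0379 FPKM without it. Libraries with and without BMP4 did not overlap in either setting. In iPSC-origin libraries Fgfr4 was low throughout, between 0 and 1.12 FPKM with a median of 0.250 FPKM, and its highest value was again in replicate 2 of the BMP4-treated assembled iPSC part. BMP4 minus none was 1.56 ± 0.35 in TSC alone (limma adjusted p = 0.0139), 1 of 9 members called against 12.1% of all genes (6.39% higher and 5.74% lower), and 1.53 ± 0.35 in the assembled TSC part (limma adjusted p = 0.0941). The call in TSC alone was lost without replicate 2 of TSC alone with BMP4 (1.26, adjusted p = 0.071), with library quality weights (adjusted p = 0.0709) and when these 4 libraries were fitted by themselves (adjusted p = 0.178). Assembled minus alone in TSC was 0.95 ± 0.25 (limma adjusted p = 0.0213). It was lost without replicate 2 of the assembled TSC part (adjusted p = 0.0755), replicate 1 of TSC alone with BMP4 (0.0564) or replicate 1 or 2 of the BMP4-treated assembled TSC part (0.0533 and 0.0542), and kept without both libraries with markers of the other lineage (0.85, adjusted p = 0.0358). TSC minus iPSC was 1.29 ± 0.25 between assembled parts (limma adjusted p = 0.00226) and 0.49 ± 0.25 alone (limma adjusted p = 0.129). With only the untreated groups the assembled difference was 0.60 (adjusted p = 0.274), and without the 2 libraries with markers of the other lineage it was 1.47. The difference alone passed with only the BMP4-treated groups (1.37, adjusted p = 0.0177) and after quantile normalization (0.73, adjusted p = 0.022).

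Fgfr3, a receptor known for restraining bone growth, stayed low. It ranged from 0.0997 to 2.03 FPKM in libraries of TSC origin, with a median of 0.286 FPKM, and from 0.0236 to 0.527 FPKM in those of iPSC origin, with a median of 0.191 FPKM. Of the 16 libraries 2 exceeded 1 FPKM, replicate 2 of TSC alone with BMP4 (1.21 FPKM) and without it (2.03 FPKM). Every group overlapped its neighbour in the order of levels, and no comparison called it, although TSC minus iPSC alone passed without replicate 1 of TSC (0.84, adjusted p = 0.0185), as did assembled minus alone in TSC (-0.80, adjusted p = 0.0493).

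The make-up of the receptor mRNA, as shares of the summed FPKM of the 4 receptors, followed from these levels. Fgfr2 made up 53.5% and 69.7% in the assembled TSC part with BMP4, 56.9% and 67.3% without it, and 57.4% and 52.7% in TSC alone with BMP4. In untreated TSC alone it made up 29.4% and 43.2%, below Fgfr1 at 69.0% and 50.1%. Fgfr1 led in every library of iPSC origin, with 75.6% to 97.0% in 7 of them and 50.2% in replicate 2 of the BMP4-treated assembled iPSC part, where Fgfr2 held 45.1%. Fgfr2 thus exceeded Fgfr1 in 6 of 8 libraries of TSC origin and in 0 of 8 of iPSC origin. Markers of trophoblast stem cells differed between these libraries in both directions. In untreated TSC alone Elf5 stood at 5.51 and 11.6 FPKM, against 116 to 224 FPKM in the 6 other libraries of TSC origin, and 6 and 7 of the 9 markers reached 1 FPKM, against all 9 in the others. The sum over the 9 was nevertheless 6221 and 3509 FPKM there, against 544 to 1691 FPKM in the others, mostly from Krt8 and Krt18. Tfap2c and Gata3 were also highest there. The part of these markers in the result was not tested.

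**Figure D2:**
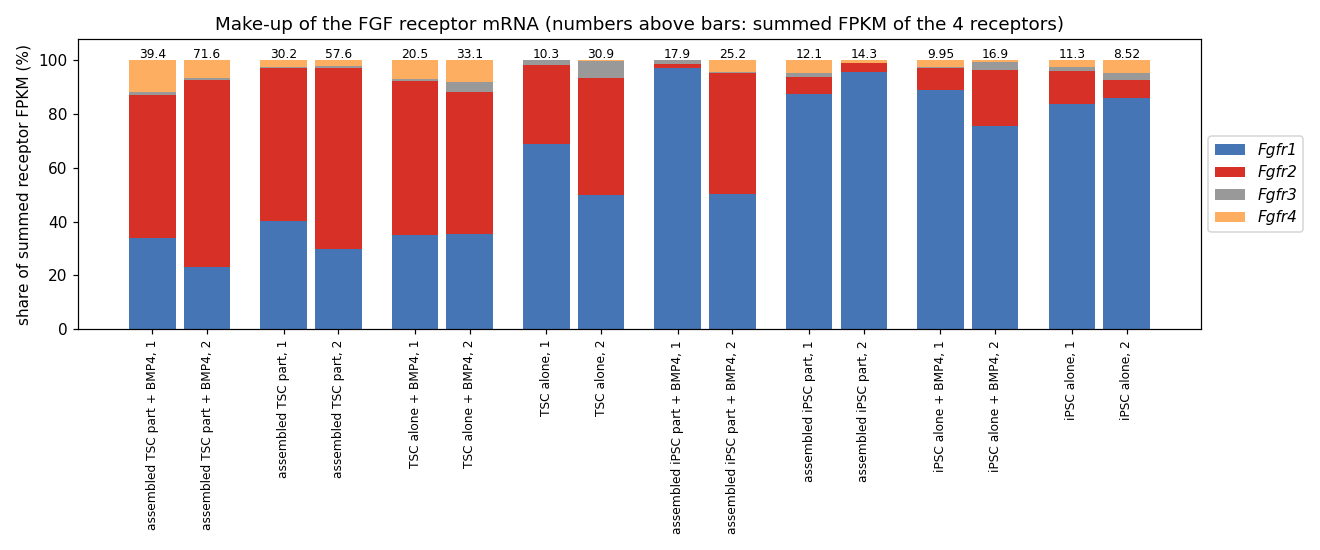
Each bar splits the summed FPKM of the 4 receptors in 1 library into percent shares, with the sum in FPKM above the bar and libraries grouped by their 8 groups. Fgfr2 takes 52.7% to 69.7% in 6 of the 8 TSC-origin libraries, 29.4% and 43.2% in untreated TSC alone, and 1.52% to 45.1% in the iPSC-origin libraries.

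Fgfbp1, a secreted protein that binds FGFs and frees them from the extracellular matrix, was the most abundant member in the TSC groups. The assembled TSC part held 94.3 and 80.6 FPKM with BMP4 and 66.0 and 92.9 FPKM without it, and TSC alone held 49.0 and 43.0 FPKM with BMP4 and 39.4 and 40.8 FPKM without it. The assembled iPSC part held 9.58 and 43.4 FPKM with BMP4 and 24.6 and 23.5 FPKM without it, and iPSC alone held 8.04 and 9.66 FPKM with BMP4 and 14.4 and 33.7 FPKM without it. All 4 assembled TSC libraries were above all 4 of TSC alone, and of the iPSC side only replicate 2 of the assembled part with BMP4, at 43.4 FPKM, reached the range of TSC alone. TSC minus iPSC was 1.54 ± 0.37 alone (limma adjusted p = 0.00451) and 1.84 ± 0.37 between assembled parts (limma adjusted p = 0.00272), the second being 2.24 without the 2 libraries with markers of the other lineage. The difference alone came mostly from the BMP4-treated groups, since with only the untreated ones it was 0.83 (adjusted p = 0.230). Assembled minus alone was 0.93 ± 0.37 in TSC (limma adjusted p = 0.0971, or 0.0378 when those groups were fitted by themselves) and 0.63 ± 0.37 in iPSC (limma adjusted p = 0.225). The iPSC difference passed without replicate 1 of the assembled part with BMP4 (1.15, adjusted p = 0.0108).

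**Figure D3:**
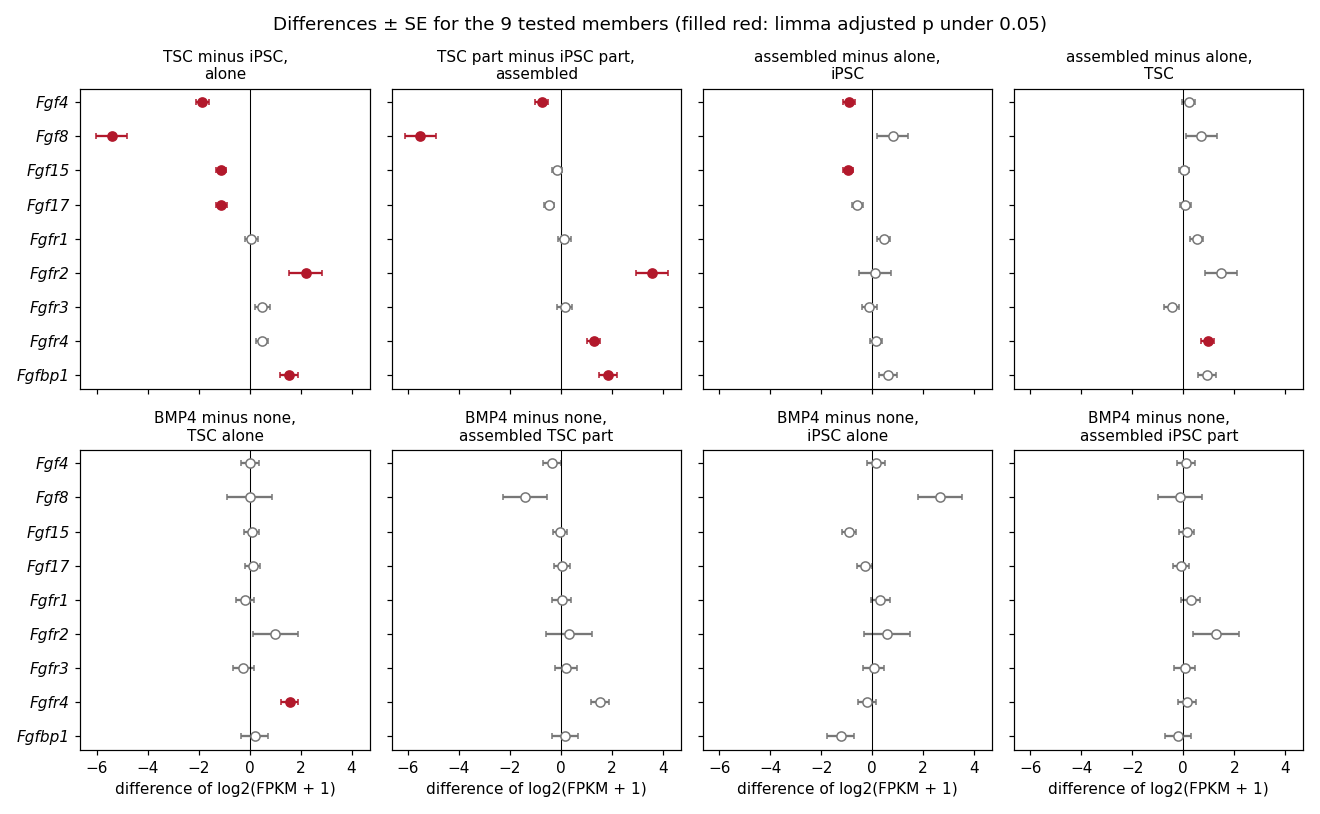
Each panel is 1 comparison, with the difference of log2(FPKM + 1) on the horizontal axis and the 9 tested members down the page. Bars are SE and filled red points have an adjusted p under 0.05. Fgf8 lies furthest left in both comparisons of TSC with iPSC, at -5.41 and -5.51, and Fgfr4 is the 1 red point in the 4 BMP4 panels.

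In the other BMP4 comparisons limma called 0 of the 9 members, where few genes passed at all: 0.0597% in iPSC alone, 0.00746% in the assembled iPSC part and 0.500% in the assembled TSC part. At an unadjusted p under 0.05 there were 3 members in iPSC alone, 0 in the assembled iPSC part and 1 in the assembled TSC part, Fgfr4. The 3 in iPSC alone were Fgf8 (2.65 ± 0.87), Fgf15 (-0.91 ± 0.28) and Fgfbp1 (-1.24 ± 0.52), with limma adjusted p-values of 0.521, 0.491 and 0.716. Fgf8 there stood at 97.1 and 309 FPKM with BMP4 against 27.8 and 25.7 FPKM without it, so the libraries did not overlap but the treated ones differed widely. In replicate 2 of iPSC alone with BMP4, which had the 309 FPKM, Gata3 stood at 6.42 FPKM and Hand1 at 16.8 FPKM, against 1.07 and 2.78 FPKM in replicate 1, and their part in the result was not tested.

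No member passed a test of whether a difference itself differed between settings. For assembly in TSC against assembly in iPSC, limma called 4.15% of all genes (2.94% higher and 1.22% lower, or 1.63% and 2.00% after quantile normalization, 1.39% and 1.54% after upper quartile rescaling) and 0 of 9 members, with 3 at an unadjusted p under 0.05. These were Fgf15 (0.96 ± 0.28, limma adjusted p = 0.0731), Fgf4 (1.11 ± 0.36, limma adjusted p = 0.0895) and Fgfr4 (0.80 ± 0.35, limma adjusted p = 0.194). Without replicate 2 of the BMP4-treated assembled iPSC part, Fgf4 (1.40, adjusted p = 0.0183) and Fgf15 (1.10, adjusted p = 0.0378) passed. For BMP4 in assembled cells against cells alone, limma called 0 of 9 members in iPSC (0.0224% of all genes) and in TSC (1.75%), with 2 and 0 at an unadjusted p under 0.05.

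Other genes of the pathway came from 6 lists, whose counts are read against the shares of all genes called, 42.3% for TSC against iPSC alone, 27.0% between assembled parts, 26.6% and 17.6% for assembly in iPSC and TSC, and 12.1% for BMP4 in TSC alone. The last share leaned on the fit of all 16 libraries. It became 1.93% higher and 1.26% lower with library quality weights. With TSC alone fitted by itself it became 0.00746% higher and 0.0149% lower. Of 13 other secreted ligands, 2 could be tested, and Fgf5, a ligand of the postimplantation epiblast, was the abundant one. It averaged 0.0245 ± 0.0490 FPKM in TSC alone and 24.3 ± 24.1 FPKM in iPSC alone (SD, n = 4 each; -3.81 ± 0.33, limma adjusted p = 4.79e-06). Within iPSC alone it stood at 2.94 and 4.01 FPKM with BMP4, against 44.3 and 45.9 FPKM without it (-3.38 ± 0.47, limma adjusted p = 0.0181), while Fgf8 there was higher with BMP4 in both libraries. Of 4 intracellular FGF homologous factors only Fgf13 could be tested, and it was lower in TSC alone (-1.22 ± 0.34), in the assembled TSC part (-1.27 ± 0.34) and in both assembly contrasts (-1.12 ± 0.34 in iPSC and -1.17 ± 0.34 in TSC), a gene named after its values were seen. Of 8 receptor partners 4 were tested, and 3 were lower in TSC in each lineage comparison. Cdh2, a cadherin that interacts with FGFR1, averaged 0.518 ± 0.731 FPKM in the assembled TSC part and 5.58 ± 6.09 FPKM in the assembled iPSC part (SD, n = 4 each; -1.80 ± 0.51, limma adjusted p = 0.0192).

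Heparan sulfate, the co-factor that binds FGF to its receptor, was covered by 23 genes, of which 20 were tested. In TSC against iPSC alone, 4 were higher and 6 lower (median -0.37, all genes -0.10), 10 of 20 and so near the 42.3% of all genes, and between assembled parts 2 were higher and 6 lower (median 0.16, all genes 0.08), 8 of 20 beside 27.0%. The proteoglycan Gpc3 averaged 0.616 ± 0.308 FPKM in TSC alone and 43.6 ± 44.0 FPKM in iPSC alone (SD, n = 4 each; -4.40 ± 0.66, limma adjusted p = 0.000213). Sulf1, which removes 6-O-sulfate, averaged 0.00921 ± 0.0107 and 5.85 ± 1.64 FPKM (-2.73 ± 0.20, limma adjusted p = 1.58e-06), and Hs6st2, which adds it, fell by 3.15. On the other side, Sdc4, a syndecan, averaged 81.4 ± 29.7 FPKM in TSC alone and 26.5 ± 5.17 FPKM in iPSC alone (1.51 ± 0.41, limma adjusted p = 0.0095), and the glypican Gpc1 was higher too (1.94 ± 0.32, limma adjusted p = 0.000372). Assembled against alone, 3 were higher and 4 lower in iPSC, which became 4 higher and 2 lower after quantile normalization or upper quartile rescaling, and 2 were higher in TSC, among them Hs6st1 (1.13 ± 0.28, limma adjusted p = 0.0183).

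Of 18 adaptors and kinases of the cascade 17 were tested. In TSC against iPSC alone, 4 were higher and 5 lower (median -0.20, all genes -0.10), 9 of 17 and likewise near the 42.3% of all genes, among them the receptor adaptor Frs2 (1.28 ± 0.25, limma adjusted p = 0.00125) and the kinase Mapk3 (-1.39 ± 0.25, limma adjusted p = 0.000818). Between assembled parts 2 were higher, the adaptors Gab1 (1.85 ± 0.33) and Grb2 (1.66 ± 0.28), and 2 lower. Assembled against alone, 1 was higher and 6 lower in iPSC, or 2 and 4 after quantile normalization. Map2k2, a kinase that activates ERK, was lower in assembled cells of both kinds, at 41.3 ± 12.2 FPKM in the assembled and 102 ± 20.9 FPKM in the lone iPSC (-1.30 ± 0.17, limma adjusted p = 0.000656), and at 34.4 ± 5.28 and 90.8 ± 20.1 FPKM in TSC (SD, n = 4 each; -1.36 ± 0.17, limma adjusted p = 0.000674).

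The feedback inhibitors and transcriptional targets of FGF signalling numbered 14, of which 13 were tested. In TSC against iPSC alone, 11 were lower, with a median of -1.93 against -0.10 for all genes, and between assembled parts 6 were lower and 1 higher (median -0.68, all genes 0.08). Dusp6, a phosphatase that inactivates ERK, stood at 17.5 and 10.0 FPKM in TSC alone with BMP4, against 0.206 and 0.0433 FPKM without it (3.67 ± 0.43, limma adjusted p = 0.000401). Etv4, a target factor, stood at 14.6 and 16.1 FPKM there with BMP4, against 0.143 and 0.0528 FPKM without it (3.90 ± 0.37, limma adjusted p = 7.95e-05). In the assembled TSC part without BMP4, Etv4 was already at 23.7 and 17.1 FPKM, and Dusp6 at 4.16 and 8.51 FPKM. The count of 11 lower averages both BMP4 conditions. In iPSC alone with BMP4, Etv4 stood at 8.25 and 6.82 FPKM and Dusp6 at 120.8 and 141.2 FPKM. With BMP4, Etv4 was thus higher in TSC alone than in iPSC alone, and Spry1 overlapped, while Dusp6, Etv5, Spry2 and Spry4 were lower. Of the 13 genes, 7 were higher in TSC alone with BMP4 (median 1.84, all genes 0.02), and 7 were higher in assembled TSC against TSC alone (median 1.20, all genes 0.00). Both contrasts use the same 2 libraries of untreated TSC alone, so they are not independent. With BMP4, Etv4 stood at 22.9 and 16.8 FPKM in the assembled TSC part against 14.6 and 16.1 FPKM in TSC alone. Dusp6 and Etv5 overlapped there, while Spry1 and Spry2 (27.6 and 17.9 against 8.39 and 7.86 FPKM) were higher in the assembled part. Assembled against alone in iPSC, 1 was higher and 2 lower, which became 2 higher and none lower after quantile normalization or upper quartile rescaling. The 2 libraries of untreated TSC alone, which had FGF4 and heparin in the medium like the others, were thus near 0 for Dusp6, Etv4 and Etv5. They were also the ones with the lowest Fgfr4, the lowest Fgfr2 share, the lowest Elf5 and the highest Krt8, Krt18, Tfap2c and Gata3 on the TSC side.

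Genes whose pattern over the 16 libraries was most like a member's, by Pearson's r of log2(FPKM + 1) among 11692 named candidates, are given as a description, since the libraries share lineage and assembly. Fgf8 was most like Ifitm1 (r = 0.989), Ppp4r4 (0.982) and T (0.981), with 0.934 for T within the 8 libraries of iPSC origin and 0.845 within the 8 of TSC origin. Fgf4 was most like Psma8 (0.984), Trh (0.966) and Fut9 (0.965), and Fgf17 most like Ric3 (0.976), Nefm (0.962) and Trh (0.959). Fgf15 was most like Tceal3 (0.935), Nes (0.933) and Rragb (0.924), which were 0.594, 0.561 and 0.212 within the 8 libraries of TSC origin, where Fgf15 was at or near 0. Fgfr2 was most like Kctd1 (0.975), Meis1 (0.969) and Wnt7b (0.958), and Fgfr4 most like Gsg1 (0.961), Nexmif (0.955) and Duox2 (0.953). Fgfbp1 was most like Xlr3c (0.928), Dhrs7b (0.915) and Ahdc1 (0.900), and Fgfr1 most like Retreg1 (0.914), Nudt4 (0.867) and Lrrc1 (0.866). Fgfr3 was most like Fbxo32 (0.897), Slc41a1 (0.886) and Tgfbr3 (0.872), but with Fbxo32 at -0.152 within the libraries of iPSC origin. Over these 27 pairs r within 1 origin ranged from 0.212 to 0.989 for TSC and from -0.152 to 0.979 for iPSC. Among the members themselves, Fgf4 and Fgf17 (r = 0.922) and Fgf15 and Fgf17 (0.888) ran together, as did Fgfr2 and Fgfbp1 (0.816), and Fgf8 ran opposite to Fgfbp1 (-0.794) and Fgfr2 (-0.735), all over 16 libraries.

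**Figure D4:**
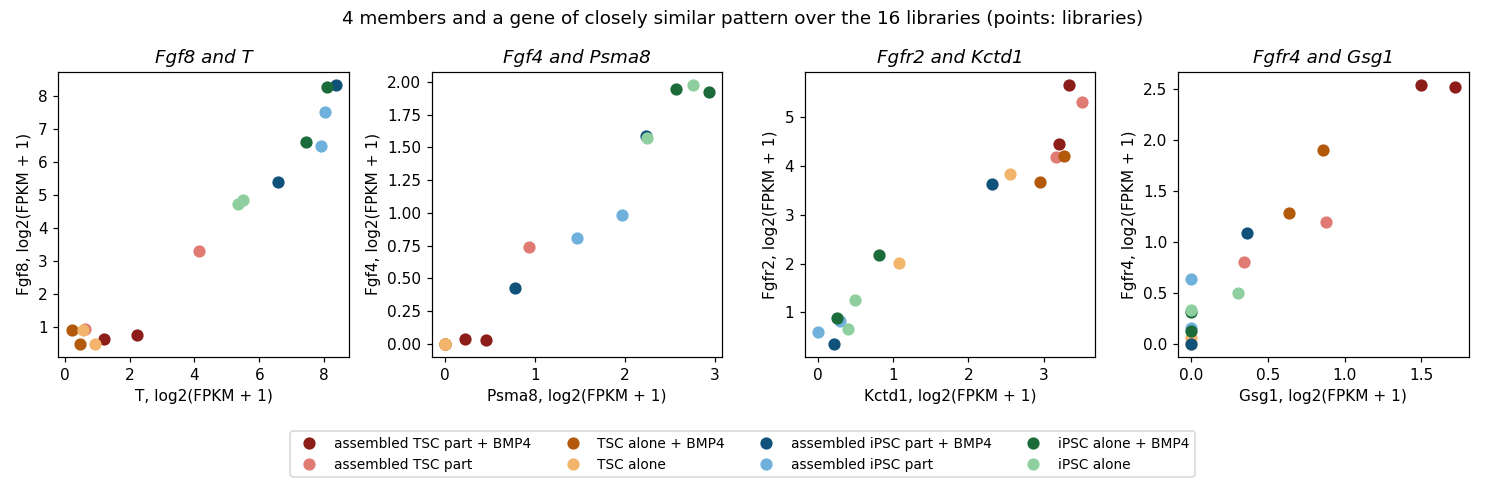
Each panel plots a member against a gene of similar pattern, both as log2(FPKM + 1), with points for the 16 libraries coloured by group. The pairs are Fgf8 with T (r = 0.981), Fgf4 with Psma8 (0.984), Fgfr2 with Kctd1 (0.975) and Fgfr4 with Gsg1 (0.961), and in the panels of Fgf8, Fgf4 and Fgfr2 the libraries of TSC and iPSC origin take opposite ends apart from those named above, while for Fgfr4 untreated TSC alone lies at the iPSC end.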

How the data were processed

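Smart-seq2 libraries of mouse cells, 16 in 8 groups of 2, were used. The authors deposited FPKM for 31663 entries, with a column per library, and every column was used. The submitters' processing notes list CASAVA, TopHat2, mm9 and hg19 without saying what each was for. The program behind the FPKM values, its annotation and the read depth are not stated in those notes, so how reads of related or overlapping genes were split is unknown. The members and lists were chosen with earlier results of these data known.

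A fit in limma 3.58.1 (R 4.3.3) of log2(FPKM + 1) had 8 group means, 8 residual degrees of freedom and an intensity trend. Genes needed 1 FPKM in 2 or more libraries. Tests were two-sided, with Benjamini-Hochberg adjustment over the 13406 genes of each of 11 comparisons and a threshold of 0.05. Lineage and assembly differences are means over both BMP4 conditions. From each list, up to 3 called genes per direction with a mean of at least 5 FPKM were named, with the largest differences first, and any other named list gene was chosen after its values were seen. The 3 most similar genes per member left out predicted, microRNA, snoRNA and pseudogene names.

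Alternatives changed the pseudocount to 0.1, dropped the filter, applied quantile normalization, rescaled by upper quartiles, left out predicted names with totals rescaled, weighted libraries by quality, added a replicate block, fitted the compared groups by themselves, took 1 BMP4 condition only, or left out each library or both libraries with markers of the other lineage. Both were picked after their values were seen. Between them they held the highest Fgf8 of the TSC side and the highest Fgfr2, Fgfr4 and Fgfbp1 of the iPSC side. Runs without both are therefore no independent check of the lineage differences. The fit was tested on simulated data. Promoter windows came from RefSeq (GRCm38.p6), and no other coordinate is given because the files' build is not settled. Tables and figures were made in Python 3.11.15 with pandas 2.3.3, numpy 2.4.6 and matplotlib 3.10.9.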

Additional observations from a re-analysis of the deposited data

Results flagged for a closer look

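No member's difference itself differed between settings at an adjusted p under 0.05, but of 57 tested list genes of the pathway limma called 9 for assembly in TSC against assembly in iPSC (4.15% of all genes), each with a higher assembled minus alone difference in TSC than in iPSC. Of all genes, 2.94% were called higher and 1.22% lower as deposited, but 1.63% and 2.00% after quantile normalization. On the log2(FPKM + 1) scale the interaction was 2.49 for Etv5 (adjusted p = 0.00702), 2.27 for Spry2 (0.0112), 2.10 for Etv4 (0.0132), 1.49 for Spry1 (0.0145), 2.24 for Dusp6 (0.0176), 2.32 for the ligand Fgf5 (0.0227), 1.65 for Plcg1 (0.0306), 1.86 for Spry4 (0.0331) and 1.16 for Fgfbp3 (0.0384). Assembled minus alone itself was called in TSC for Etv5, Spry2, Etv4, Spry1 and Dusp6, at 1.55 to 2.31, and in iPSC for the other 4. These stood at 0.40 in TSC and -1.92 in iPSC for Fgf5, 0.70 and -0.95 for Plcg1, 0.87 and -0.98 for Spry4, and -0.08 and -1.24 for Fgfbp3. The iPSC differences lie on a median of -0.19 over all genes as deposited. After quantile normalization or upper quartile rescaling no feedback gene, Spry4 included, was called lower in iPSC.

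The BMP4 difference in the assembled TSC part was smaller than in TSC alone for 3 of the 57 genes (1.75% of all genes), Etv4 (interaction -3.93, adjusted p = 0.00487), Etv5 (-2.50, 0.0382) and Spry1 (-1.73, 0.0453). Etv5 stood at 23.7 and 15 FPKM in the assembled TSC part with BMP4 and 6.90 and 10.2 FPKM without it, and at 8.64 and 18 FPKM in TSC alone with BMP4 and 0.064 and 0.208 FPKM without it. The same 2 libraries of untreated TSC alone enter both interactions, and in them 6 and 7 of 9 trophoblast stem cell markers reached 1 FPKM, against all 9 in the other 6 libraries of TSC origin. Eomes and Esrrb were near 0 there, while the sum over the 9 was the highest on the TSC side, at 6221 and 3509 FPKM, mostly Krt8 and Krt18. Tfap2c and Gata3 were also highest there. The part of these markers in these differences was not tested.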

How the results depend on the processing

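The members called numbered 6 (TSC against iPSC alone), 5 (assembled TSC against iPSC part), 2 and 1 (assembled against alone in iPSC and TSC) and 1 (BMP4 in TSC alone), and 0 in the other 6 comparisons, by limma. Leaving out 1 library gave 5 to 7, 4 to 6, 1 to 4, 0 to 2 and 0 to 1 for these, 0 to 2 for assembly between lineages, and 0 elsewhere. Only the untreated pair gave 3 between assembled parts, 1 for assembly in iPSC and 0 in TSC, and only the BMP4 pair gave 0 for both assembly comparisons. A pseudocount of 0.1 left 1 for assembly in iPSC. Without both libraries with markers of the other lineage, that comparison gave 4 and the interaction of assembly with lineage 1. Library quality weights or a fit of only the groups compared left 0 for BMP4 in TSC alone. No called difference reversed. Fgf4 and Fgf8 alone, and Fgf8, Fgfr2 and Fgfbp1 between assembled parts, kept their calls in every alternative run. The cause of each change was not tested.

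No label says whether same-numbered libraries share a structure. Their deviations correlated between groups at -0.185 to 0.119, which shows no common shift. This does not settle whether they are paired, since each group gives only 1 difference per gene. The main fit did not use the numbers as pairs. A fit with the replicate block gave the same counts of members (6, 5, 2, 1 and 1, with 0 elsewhere). With 2 libraries a group and unknown depth, low members such as Fgf15 and Fgfr4 are the least certain.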

Other observations

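Fgf4 and Fgf15 are neighbours on mouse chromosome 7 in the RefSeq gene order (GRCm38.p6), with Fgf3 on one side and LTO1 and Ccnd1 on the other, and the neighbours were looked at after the members' values were seen. Ccnd1, which encodes cyclin D1, was lower in TSC alone than in iPSC alone (-2.83 ± 0.37, limma adjusted p = 8.59e-05) and higher in assembled TSC than in TSC alone (1.69 ± 0.37, limma adjusted p = 0.0106). Its levels in TSC alone were 11 and 16.2 FPKM with BMP4 and 0.356 and 0.682 FPKM without it. LTO1, which lies between Fgf15 and Ccnd1, was not called in TSC against iPSC alone (0.59 ± 0.27, limma adjusted p = 0.0917). Fgf3 was not tested, and its highest value, 3.01 FPKM, was in a library of TSC origin. Dmtn, next to Fgf17, went the other way from Fgf17 and was higher in TSC alone than in iPSC alone (1.18 ± 0.24, limma adjusted p = 0.00171). Npm3, next to Fgf8 on chromosome 19 and encoding a histone-binding protein, was lower in TSC alone than in iPSC alone (-1.38 ± 0.24, limma adjusted p = 0.000533) and lower in the assembled TSC part than in the iPSC part (-0.78 ± 0.24, limma adjusted p = 0.0267). It ranged from 3.85 to 8.20 FPKM in libraries of TSC origin and from 9.51 to 24.7 FPKM in those of iPSC origin, so the sets did not overlap. Fbxw4, on the other side of Fgf8, was also lower, alone (-0.94 ± 0.32, limma adjusted p = 0.0318) and between assembled parts (-1.13 ± 0.32, limma adjusted p = 0.02). Of all tested genes, 42.3% were called alone and 27.0% between assembled parts, so a called neighbour is common. Neighbours of the other members were called in some cases and not in others.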
